A study of Arabidopsis thaliana with 3 samples.

Results

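The regions described here are start windows that lie in the middle of the coding sequence of transcripts with several such windows. A start window is a stretch in which the 5′ ends of sequenced RNAs pile up. Each entry of the deposited table sets 1 second window of a transcript beside the first and gives the coding bases left downstream of the second window. For each gene the transcript with the most reads was taken, and transcripts with 3 or more entries were kept. Of their second windows, those with 10% to under 90% of the coding sequence left were taken, unless the type column of the table marked a domain there as PPID. That abbreviation is not spelled out in the sources used here, and it sets which windows are left out. This gave 1081 windows in 514 genes, of 10220 second windows in 6814 genes.

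The reads came from PEAT, a paired-end method that sequences the 5′ ends of RNAs, applied to total RNA of whole 10-day-old wild-type Col-0 seedlings of Arabidopsis thaliana. One group stayed in white light, and the others had 45 min and 90 min of far-red-enriched light. Each group is 1 library. The series concerns a microprotein of ATHB2 in shade avoidance, and the mutant and overexpression lines of its design text are not analysed here. With 1 library per group, every test below compares libraries and not conditions, covers counting error only, and has no replicate check. In whole seedlings, fewer cells of a type and less RNA per cell cannot be told apart. No marker genes of seedling organs were listed, so the labelled tissue was not checked.

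As background, transcription of most plant genes begins upstream of the start codon. A start inside the gene gives a shorter RNA, and where a downstream start codon is used in frame the protein lacks its amino terminus. Microproteins are small proteins that keep an interaction domain without the rest of the protein and can act on their full-length relatives. Whether the 5′ ends counted here are starts of transcription was not tested. Phytochromes sense the ratio of red to far-red light, and a low ratio, as under a canopy, starts the shade avoidance response.

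The choice kept 51.3% of the 2109 second windows of the 666 genes with 3 or more entries. Of the windows left out, 879 had a PPID mark, 102 lay near the end and 47 near the start of the coding sequence. Each of 164 genes had 1 member window, 155 had 2, 173 had 3 and 22 had 4. At the lower limit, ATB' ALPHA just entered with 10.01% of its coding sequence left and AT4G33500 just missed with 9.98%. At the upper limit, AT4G39690 entered with 89.7% left and AT1G13940 missed with 90.8%.

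Member windows lay towards the 3′ end of the coding sequence. The median window had 581 coding bases left (quartiles 361 and 904), which was 37.5% of the coding sequence. From 10% to under 20% left there were 205 windows, against 60 from 80% to under 90%. Mid-gene second windows that were left out for a PPID mark lay further 5′, with a median of 61.9% left over 782 windows. The choice sets part of this difference, because a listed domain needs coding sequence downstream. No listed domain of any kind lay downstream of 773 member windows (71.5%), against 39.7% of the other second windows, which the choice sets in part as well. The number of coding bases left was a multiple of 3 for 35.9% of member windows and for 35.1% of the others.

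**Figure D1:**
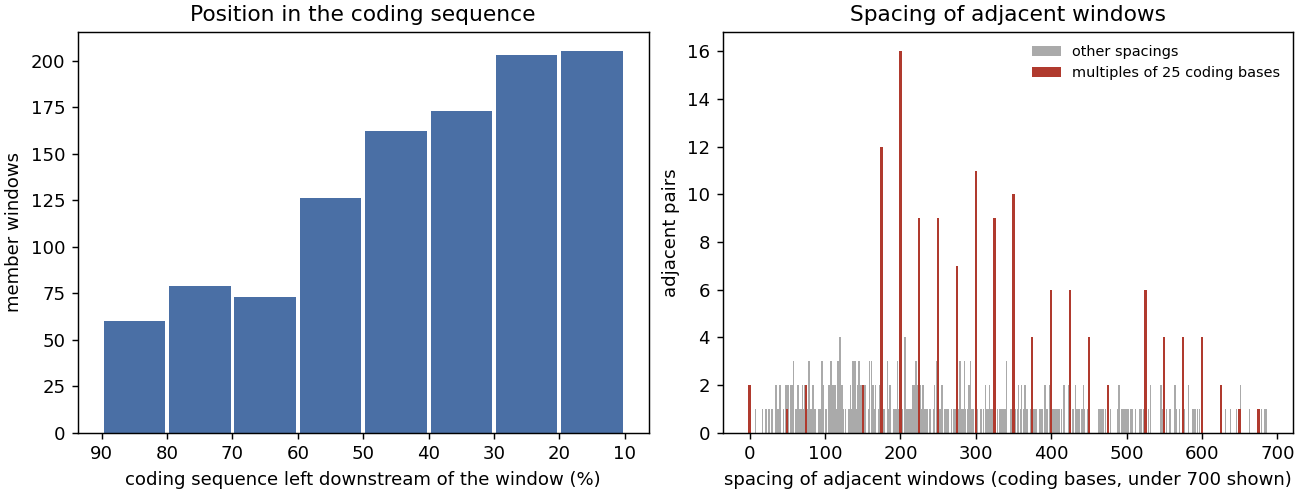
The left panel counts the 1081 member windows by the percentage of coding sequence left downstream, from 5′ to 3′, and the right panel counts adjacent pairs of member windows by their spacing in coding bases. Windows become more frequent towards the 3′ end, and spacings that are multiples of 25 bases, in red, mostly stand above their neighbours between 175 and 600 bases.

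The genes were longer than those of the table as a whole, with a median coding length of 1596 bases (quartiles 1263 and 2130) against 1299 over all 6814 genes. The 152 genes with 3 or more entries but no member window were longer still, with a median of 1945.5 bases. Genes with 1 entry had a median of 1176 bases and genes with 2 entries 1404 bases, so coding length rose with the number of windows. Transcripts of the member genes were less abundant, with a median of 312 reads over the 3 libraries against 521 in the table. No test was made of these differences, since the number of entries chose the genes. Another annotated gene overlapped 161 of them (31.4%), against 32.3% of the table, and reads of overlapping genes cannot be assigned with certainty.

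The longest coding sequences belonged to POK2 (8316 bases), a kinesin known for guiding the division plane, MOM (6006 bases), a factor of transcriptional silencing, and DCAF1 (5652 bases), a substrate receptor of ubiquitin ligases. AT2G26780, a HEAT repeat protein (5481 bases), and AT2G25320, a MATH domain protein (5022 bases), followed. The shortest was ATCG00905, listed as a ribosomal protein S12 gene, with 258 coding bases. AE7, which acts in cytosolic iron-sulfur cluster assembly, had 480 bases, AT3G50860, a clathrin adaptor small chain, had 501, and UBC4, a ubiquitin-conjugating enzyme, had 564. AT1G20890, annotated as an expressed protein, had 594. POK2, DCAF1, AT2G26780 and AT3G50860 each overlap 1 other annotated gene.

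Spacing was measured as the coding bases between 2 adjacent windows of a transcript. Over the 567 adjacent pairs of member windows the median spacing was 285 bases (quartiles 175 and 464.5, range 0 to 4502). Other adjacent second windows were 377 bases apart in the median, and 358.5 bases in transcripts with 3 or more entries (876 pairs). Both windows of a member pair have 10% to under 90% of the coding sequence left, so the choice sets part of this difference. Spacing grew with the gene, from a median of 163.5 bases in genes under 1200 coding bases to 595.5 bases in genes of 3000 or more. As a share of the coding sequence it was 17.1% in the shortest and 18.2% in the longest of 4 length classes. The choice of windows by the percentage of coding sequence left sets part of this similar share.

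The spacings were not evenly distributed. Exactly 25 bases or a multiple of it separated 150 of the 567 pairs (26.5%), against 24 pairs (4.23%) for multiples of 24 and 12 pairs (2.12%) for multiples of 26. The most frequent value was 200 bases, in 16 pairs, followed by 175 bases in 12, 300 in 11 and 350 in 10. Under 175 bases only 5 of 141 pairs had such a spacing. The other adjacent second windows showed the same steps, with 737 of 2839 pairs (25.96%) at multiples of 25. A repeat every 25 bases is a property of the positions in the table, and how the windows were placed is not given in the sources used here.

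The largest spacing was 4502 bases in POK2, between windows with 7282 and 2780 coding bases left. MOM had a gap of 2802 bases and SAR1, a nucleoporin of the outer ring of the nuclear pore, one of 2346 bases. At the other end, the windows of AT5G11780, a gene with no named function, lay 8 bases apart, and those of IQD1, a calmodulin-binding protein, 17 bases. In AT1G18660, annotated as an ATP-dependent protease, the distance was 22 bases (1 other annotated gene overlaps it), and in AT3G02710, a beta-catenin-like protein, 26. All 3 windows of ATCG00905 had the same 26 coding bases left, so their spacing in coding bases was 0 although their read counts differed.

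The reads in member windows were 35120 for white light, 41840 for 45 min and 46574 for 90 min. These were 48.4% (95% Wilson interval 48.0 to 48.8), 49.9% (49.5 to 50.2) and 52.8% (52.5 to 53.1) of all window reads of their transcripts. The first windows of the same transcripts held 31.9%, 31.3% and 28.1%. Such intervals cover counting error only, because reads amplified without molecular identifiers need not come from separate molecules. Without the 10 transcripts with the most window reads the shares were 45.9%, 46.3% and 48.7%, and the median over transcripts was 45.9%, 43.8% and 47.9%. The order of white light and 45 min was thus not the same for the pooled share and the median.

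Single windows were thinly covered. The median per member window was 16, 19 and 23 reads for white light, 45 min and 90 min. In white light 354 windows (32.7%) were listed at 0 reads, at 45 min 215 (19.9%) and at 90 min 266 (24.6%), against 23.3%, 15.9% and 17.1% of the other second windows. Of the 1081 windows, 227 (21.0%) had reads in 1 library, 381 (35.2%) in 2 and 473 (43.8%) in all 3. The windows with reads in 1 library held a median of 30 reads there. Among windows with 10 to 29 reads, 57.0% of 193 members and 69.3% of 1050 others had reads in 1 library, and among those with 30 to 99 reads 20.03% and 18.7%. A window listed at 0 has an upper limit of 3 reads by counting error alone. Whether duplicate reads were removed is not given in the sources used here, and its part in these patterns was not tested.

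The 10 transcripts with the most reads show what the windows look like at high depth. SNG1, which makes the ultraviolet-screening phenolic sinapoylmalate, led with 11469 reads. Its window with 431 coding bases left had 866, 937 and 1206 reads for white light, 45 min and 90 min. Its share of the window reads went from 32.9% (95% Wilson interval 31.1 to 34.7) to 46.8% (44.9 to 48.8) between white light and 90 min (adjusted p = 9.2e-24, Fisher's exact test). The window just 51 bases upstream had 749, 711 and 576 reads, and its share differed by -6.07 points, under the 10 points required. Between white light and 90 min these neighbours, less than 100 bases apart, thus went opposite ways, also when scaled to the table totals. So scaled, both were lower at 45 min than in white light. The upstream window had 162.6 against 217.7 reads per 1000000, and the window with 431 left had 214.2 against 251.7.

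AUX1, the auxin influx carrier of root gravitropism, had 11277 reads and 3 member windows, each at its highest RPM in the 90 min library. RPM are reads per 1000000 of the table total. The window with 320 coding bases left had 911, 1248 and 1986 reads, or 264.8, 285.3 and 481.5 RPM. The window with 1014 left had 536, 667 and 845 reads and that with 634 left 205, 481 and 478. The share of the 3′ window was 42.7% (40.6 to 44.8) in white light and 51.9% (50.4 to 53.5) at 90 min, a difference of 9.23 points that passed the test but not the size required.

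ROC4, a chloroplast cyclophilin that helps proteins fold, changed most at its window with 297 coding bases left. That window had 364, 652 and 1004 reads. Its share went from 19.2% over 32.0% to 46.3% (44.2 to 48.4), a rise of 27.1 points (adjusted p = 9.9e-74, Fisher's exact test). The windows with 200 and 132 left had 275 and 364 reads in white light and 220 and 223 at 90 min. Neither of these passed the size required. ROC4 overlaps 1 other annotated gene.

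CPN60B, a subunit of the chloroplast chaperonin, changed in opposite ways at its last 2 windows, which are 76 bases apart. The window with 272 bases left had 45, 267 and 247 reads, and its share rose from 8.54% to 24.5% at 90 min. The window with 348 left had 145, 148 and 128 reads, and its share fell by 14.8 points. Together their reads were split 76.3% to the 5′ window in white light and 34.1% at 90 min (adjusted p = 5.6e-21, Fisher's exact test on the pair). CPN60B overlaps 1 other annotated gene.

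ZIGA4, a GTPase-activating protein of vesicle traffic, had windows with 1671 and 1617 bases left, 54 bases apart. The former had 162, 185 and 80 reads, in the order white light, 45 min, 90 min, and the latter 111, 658 and 540. Of the reads of this pair, 59.3% fell in the 5′ window in white light and 12.9% at 90 min (adjusted p = 2.0e-42, Fisher's exact test). AT2G01600, a clathrin-associated ANTH domain protein, had 1 member window, with 10, 137 and 310 reads. Its share rose from 1.09% (0.594 to 1.998) to 28.1% (25.5 to 30.8) at 90 min (adjusted p = 8.1e-74, Fisher's exact test), while the first window had 570, 452 and 471 reads. ZIGA4 overlaps 1 other annotated gene.

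GPAT4, an acyltransferase of cutin synthesis, had 437, 337 and 676 reads in its window with 1001 bases left. The share of this window rose by 13.5 points between 45 and 90 min (adjusted p = 6.9e-16, Fisher's exact test), and none of the 3 member windows passed the size required against white light. RP1, a ribosomal protein L3, had 182, 238 and 252 reads in its only member window, at 16.1%, 23.8% and 15.1% of its window reads. In AT3G57010, a strictosidine synthase-like protein, the window with 549 left held 50.7%, 52.3% and 53.7%, and neither of its member windows passed the test in any of the 3 comparisons.

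**Figure D2:**
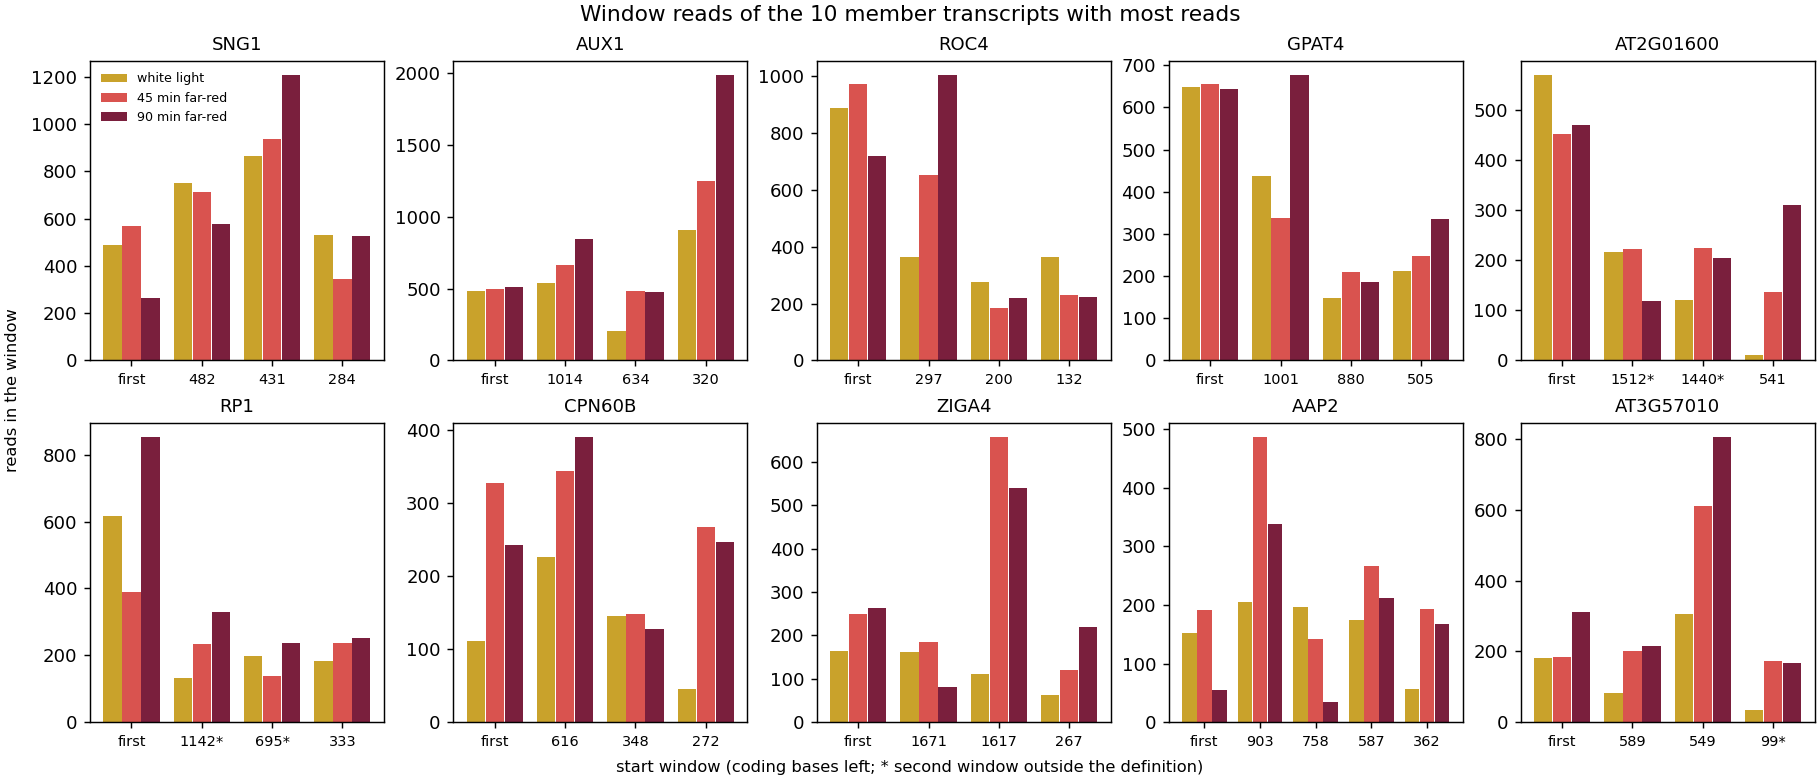
Bars give the reads of the first window and of each second window, by library, for the 10 member transcripts with the most reads, with windows ordered 5′ to 3′ and named by the coding bases left, and second windows outside the definition starred. Neighbouring windows of ZIGA4, CPN60B and ROC4 run in different directions, while the 3 member windows of AUX1 have fewer reads in white light than at 90 min. Reads are not scaled to the library totals.

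Transcripts with 4 member windows show the same at lower depth. AAP2, an amino acid permease of the phloem, is the deepest, with 3662 reads. Its window with 903 bases left had 205, 487 and 338 reads, that with 758 left 196, 142 and 34, that with 587 left 175, 267 and 212, and that with 362 left 56, 193 and 167. The share of the second of these fell by 20.8 points at 90 min (adjusted p = 8.2e-33, Fisher's exact test), while that of the first rose by 15.8 and that of the last by 13.6 points. Its window with 587 left differed by 3.98 points and did not pass.

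At 90 min HSI2, a B3-domain repressor of seed maturation genes, had a lower share in its window with 901 bases left and higher shares further 3′. Its window with 1311 bases left differed by -6.49 points and did not pass. In white light its windows with 1311 and 901 bases left had 45 and 85 reads, and those with 516 and 291 left were listed at 0. At 90 min the 4 windows had 51, 16, 125 and 82 reads, and at 45 min 7, 0, 41 and 3. The share of the window with 901 left fell by 37.1 points at 90 min, and that of the window with 516 left rose by 38.7 points (adjusted p = 1.0e-24 and 1.7e-30, Fisher's exact test). The 2 windows with the least coding sequence left thus held 38.7% and 25.4% of its window reads at 90 min.

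In AT1G76400, the ribophorin I subunit of the enzyme that transfers glycans to proteins, the last window, with 293 bases left, lost share. It had 76, 30 and 25 reads, and its share fell by 49.0 points at 90 min. The windows with 1529, 971 and 658 left had 0, 3 and 0 reads in white light, 99, 103 and 63 at 45 min, and 70, 20 and 41 at 90 min. AT3G51050, an FG-GAP repeat protein, had 0, 1, 43 and 2 reads in white light in the order 5′ to 3′, and 16, 97, 21 and 42 at 90 min. Its window with 632 left fell by 38.8 points and the one before it rose by 30.9 points (adjusted p = 1.1e-15 and 7.1e-12, Fisher's exact test). AT1G76400 overlaps 1 other annotated gene.

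PPR2, a pentatricopeptide repeat protein of organelle RNA metabolism, has member windows at steps of 200, 200 and 175 bases, all multiples of 25. The first of them had 85, 124 and 105 reads and the last 45, 79 and 92. Between them lay a window with 75, 17 and 24 reads and one with 1, 89 and 27. Both of these changed at 45 min, by -23.4 and 20.9 points, while the outer windows differed by -1.47 and 2.42 points.

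**Figure D3:**
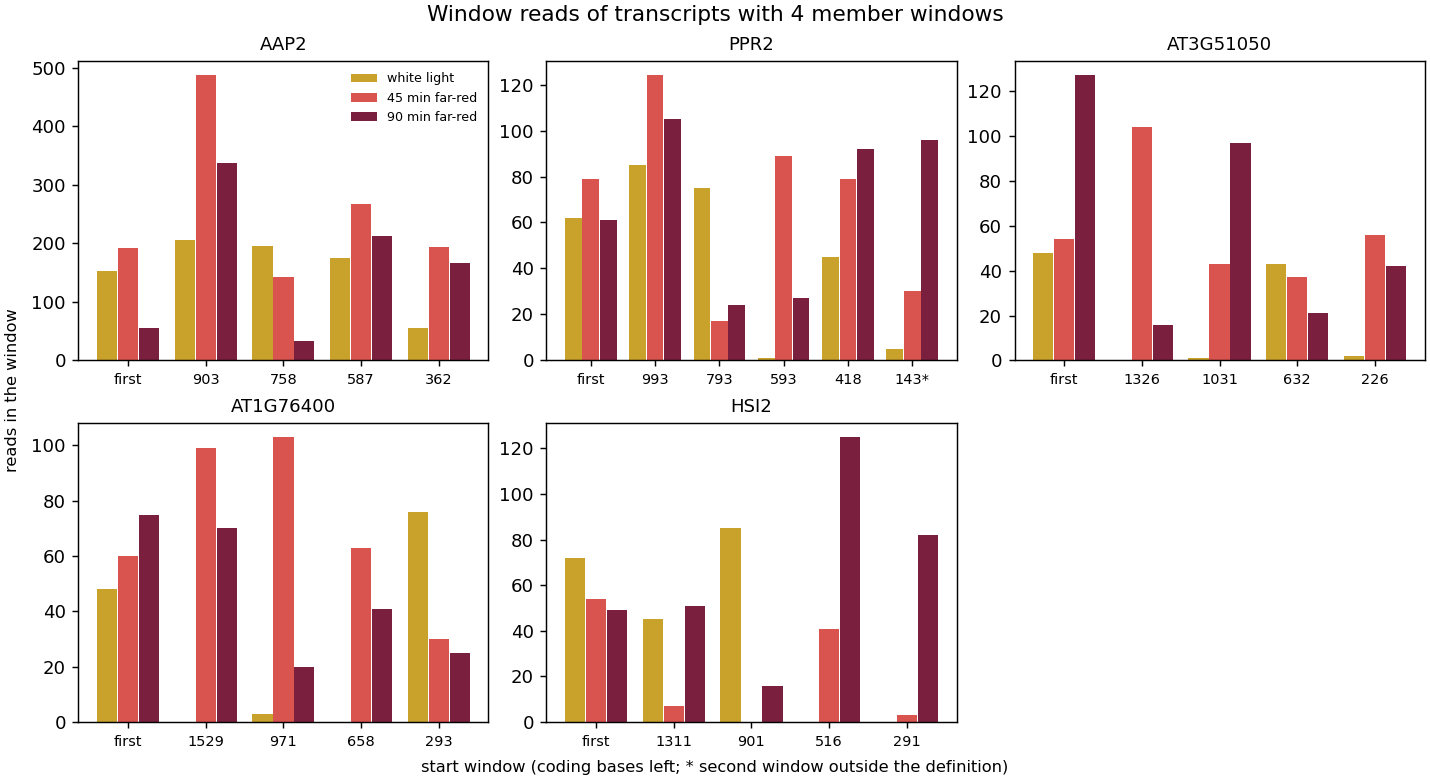
Bars give the reads of the first window and of each second window in the 3 libraries for the 5 deepest transcripts with 4 member windows, with windows ordered 5′ to 3′ and named by the coding bases left, and a second window outside the definition starred. Most second windows of HSI2, AT1G76400 and AT3G51050 have under 5 reads in at least 1 library while another window of the transcript has over 40 there.

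Across all member windows, the first question was how many changed their share of the window reads of their transcript. A changed window is one that differed by at least 10 points with an adjusted p under 0.05. The p came from Fisher's exact test, adjusted by Benjamini-Hochberg over all second windows with at least 20 window reads in both libraries. Between white light and 45 min 658 of 963 member windows tested changed (68.3%), against 65.9% of all second windows. Of these, 357 rose (37.1%, against 34.0% of all) and 301 fell (31.3%, against 31.9%). The median absolute difference was 20.7 points, against 18.1 points over all second windows. The member share is near the background and is no result about the members. The table is a selection by the authors, and its name holds the words selected and fisher. The full rule is not given in the sources used here. Every member window holds at least 10% of the reads of its transcript over the 3 libraries. The 227 windows with reads in 1 library thus passed this floor through that library alone. For them the selection itself sets part of any change in share. Were other parts of the rule based on these counts, the shares called would restate them as well, which was not tested.

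Between white light and 90 min 677 of 927 changed (73.0%, against 70.3% of all), 375 up (40.5%, against 38.8%) and 302 down (32.6%, against 31.4%), with a median absolute difference of 24.4 points. Between 45 and 90 min 604 of 1002 changed (60.3%, against 57.8%), 312 up (31.1%, against 32.6%) and 292 down (29.1%, against 25.3%), with a median of 16.3 points. The comparisons with white light share that library. Position along the coding sequence made little difference at 90 min, with 76.6% of tested windows changed from 10% to under 30% left and 69.6% from 70% to under 90% left. At 45 min the 5′ class, from 70% left upward, had 58 windows that rose and 30 that fell of 124 tested, where the 3′ class had 127 and 116 of 362. Of all second windows 34.0% rose and 31.9% fell at 45 min. The 5′ class had 47 and 33 of 115 at 90 min, and 41 and 43 of 128 between the far-red libraries. No test of the difference between position classes was made, and no background by position was taken.

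The share called was lower in the deepest transcripts. Where the transcript had 400 or more window reads (harmonic mean of both libraries), 40.9% of 66 member windows changed at 45 min, 37.1% of 70 at 90 min and 30.7% of 88 between the far-red libraries. All second windows at that depth gave 44.9%, 43.2% and 37.6%. In transcripts of 50 to under 100 window reads, 74.1%, 80.4% and 63.8% of member windows changed, and in those of 20 to under 50 reads 66.5%, 73.7% and 65.0%.

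**Figure D4:**
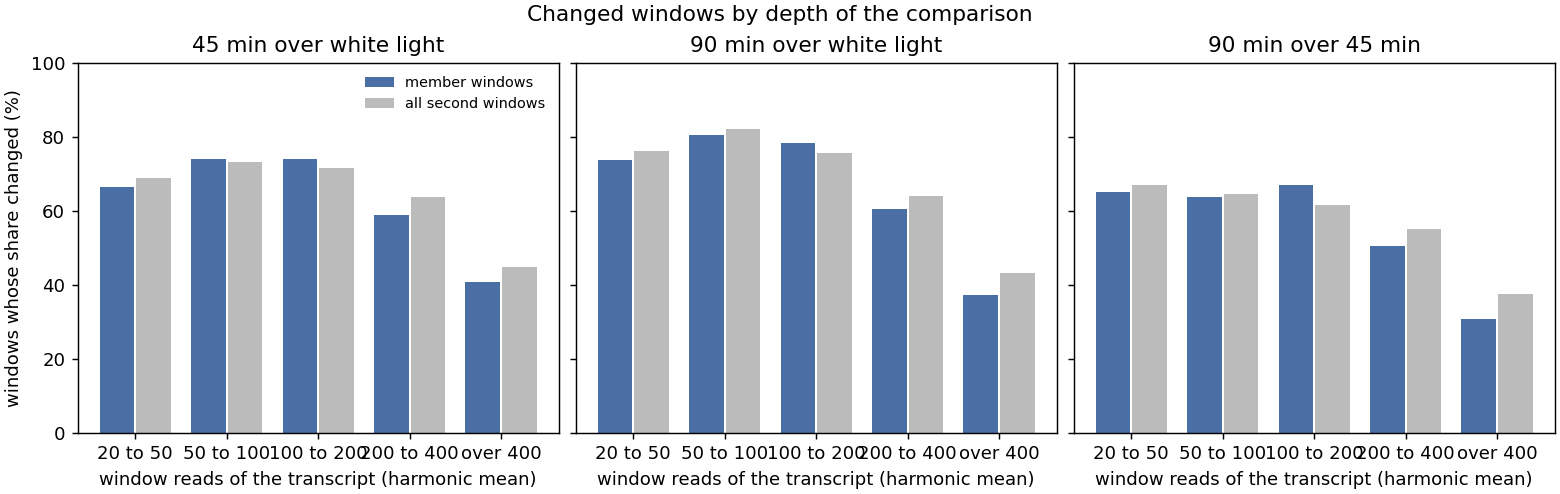
Bars give the percentage of member windows and of all second windows whose share changed, by the window reads of the transcript, for each pair of libraries. The bars of both sets stay close at each depth and drop to between 30.7% and 44.9% in the deepest class.

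A few windows switched completely, from all window reads of the transcript to none or the reverse. At 45 min 1 window rose and 5 fell by 100 points, at 90 min 7 rose and 7 fell, and between the far-red libraries 4 rose and 0 fell. These were 0.623%, 1.51% and 0.399% of member windows tested, against 0.562%, 1.4% and 0.358% of all second windows, so the member shares were near the background. The largest changes among windows that passed the test are named here, and of windows tied at 100 points those with the most window reads. At 45 min the window with 1100 bases left of AT4G39690, a mitochondrial inner membrane protein, took 22 of 22 window reads, after 0 of 41 in white light. AT5G43710, a glycosyl hydrolase, had 33 of 33 after 1 of 58, and AT4G17616, a PPR protein, 79 of 81 after 0 of 98. The last of these held 32 of 32 window reads at 90 min as well.

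The falls were of the same kind. SAR1 had 48 of 48 window reads in its window with 2948 bases left in white light and 0 of 64 at 45 min, with 23 of 167 at 90 min. IRX1, a cellulose synthase of secondary walls, had 27 of 27 in its window with 888 left in white light, and 0 of 81 and 0 of 91 in the far-red libraries. Its windows with 2357 and 1265 left were listed at 0 in white light and had 23 and 31 reads at 45 min. AT3G44160, of the OMP85 family of outer membrane proteins, went from 36 of 36 to 0 of 69 and 0 of 76, a fall of 100 points at 90 min as well. IRX1 overlaps 2 other annotated genes, and AT4G39690, AT4G17616, AT3G44160 and AT3G10540 overlap 1 each.

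At 90 min AT3G10540, a homologue of the kinase PDK1, had 54 of 54 window reads in its member window after 0 of 96 in white light and 1 of 69 at 45 min. AT1G63810, a nucleolar protein, had 37 of 37 in its window with 684 left, after 0 of 100. In the opposite direction, AT5G39865, a glutaredoxin, had 30 of 30 in white light, 14 of 95 at 45 min and 0 of 95 at 90 min. PSAT1, a sterol acyltransferase, had 33 of 33 and then 0 of 81 at 90 min. Between 27 and 100 window reads stand on the white light side of each of these named switches, and between 22 and 95 on the far-red side. The named windows of AT1G63810, PSAT1, IRX1 and AT3G44160 had reads in 1 library alone, through which they passed the 10% floor described above. The shares are of window reads, and some transcripts had more reads outside the windows. AT4G39690 at 45 min had 22 window reads of 87 transcript reads, and SAR1 in white light 48 of 114. IRX1 in white light had 27 of 27.

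Read levels of the windows, unlike shares, can all move one way. Levels were taken as log2 ratios of RPM after adding 1 RPM, which understates changes of low windows, over windows with at least 20 reads in the pair of libraries. The median log2 ratio of member windows was -0.28 at 45 min (796 windows), 0.21 at 90 min (871) and 0.32 between the far-red libraries (853). Over all second windows it was -0.23, 0.13 and 0.31. The member median at 90 min was -0.041 over windows with at least 50 reads, 0.05 with no read minimum and 0.11 under median-ratio scaling. Between the far-red libraries it was 0.17, 0 and 0.16 under these settings, and at 45 min it was 0 with no read minimum. A difference of 2-fold or more either way was seen in 562 windows at 45 min (70.6%, against 61.8% of all second windows), 644 at 90 min (73.9%, against 63.7%) and 487 between the far-red libraries (57.1%, against 47.9%). The 45 min counts were 265 up (33.3%, against 27.6% of all) and 297 down (37.3%, against 34.2%). The 90 min counts were 363 up (41.7%, against 35.6%) and 281 down (32.3%, against 28.1%), and those between the far-red libraries 284 up (33.3%, against 30.4%) and 203 down (23.8%, against 17.5%). Of the windows with a level 226, 368 and 214 were listed at 0 in 1 library (28.4%, 42.3% and 25.1%, against 21.9%, 31.0% and 17.4% of all second windows). The other library has at least 20 reads there by the read minimum, so setting such zeros to the floor of 3 reads could not change the 2-fold counts. First windows of the same transcripts differed by 2-fold or more in 62.5% of 427, 65.0% of 434 and 47.6% of 443. The transcripts as a whole, whose counts are larger than those of single windows, varied less. Of the 514, 28.6%, 37.9% and 21.2% differed by 2-fold or more.

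The next question was whether windows of 1 transcript move together. Adjacent member windows had log2 ratios of the same sign in 168 of 329 pairs at 45 min (51.1%, 95% Wilson interval 45.7 to 56.4). At 90 min it was 199 of 385 (51.7%, 46.7 to 56.6), and between the far-red libraries 193 of 373 (51.7%, 46.7 to 56.8). Other adjacent second windows gave 50.4%, 49.98% and 52.7%. The first window and a member window of the same transcript had the same sign in 50.8%, 50.5% and 51.4% of pairs. Pairs of 1 transcript share its windows, so they are not independent, and no test was made. How the authors' selection of the table bears on these shares was not tested.

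Across pairs, Pearson's r of the log2 ratios was 0.05 at 45 min, 0.01 at 90 min and 0.07 between the far-red libraries, given as a description over pairs from the same libraries. At 45 min, 86 pairs changed by 2-fold or more in the same direction and 77 in opposite directions, at 90 min 100 and 101, and between the far-red libraries 66 and 56. Spacing showed no steady trend. Windows under 150 bases apart had the same sign in 44.6% of 74 pairs at 45 min and in 50.6% of 87 pairs at 90 min, and those 600 bases or more apart in 61.2% of 49 and 61.8% of 55. Between the far-red libraries these figures were 54.3% of 92 and 47.2% of 53. In transcripts of 1000 reads or more the same sign was seen in 43, 42 and 39 of 78 pairs each, and r was 0.19, 0.0048 and 0.24.

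**Figure D5:**
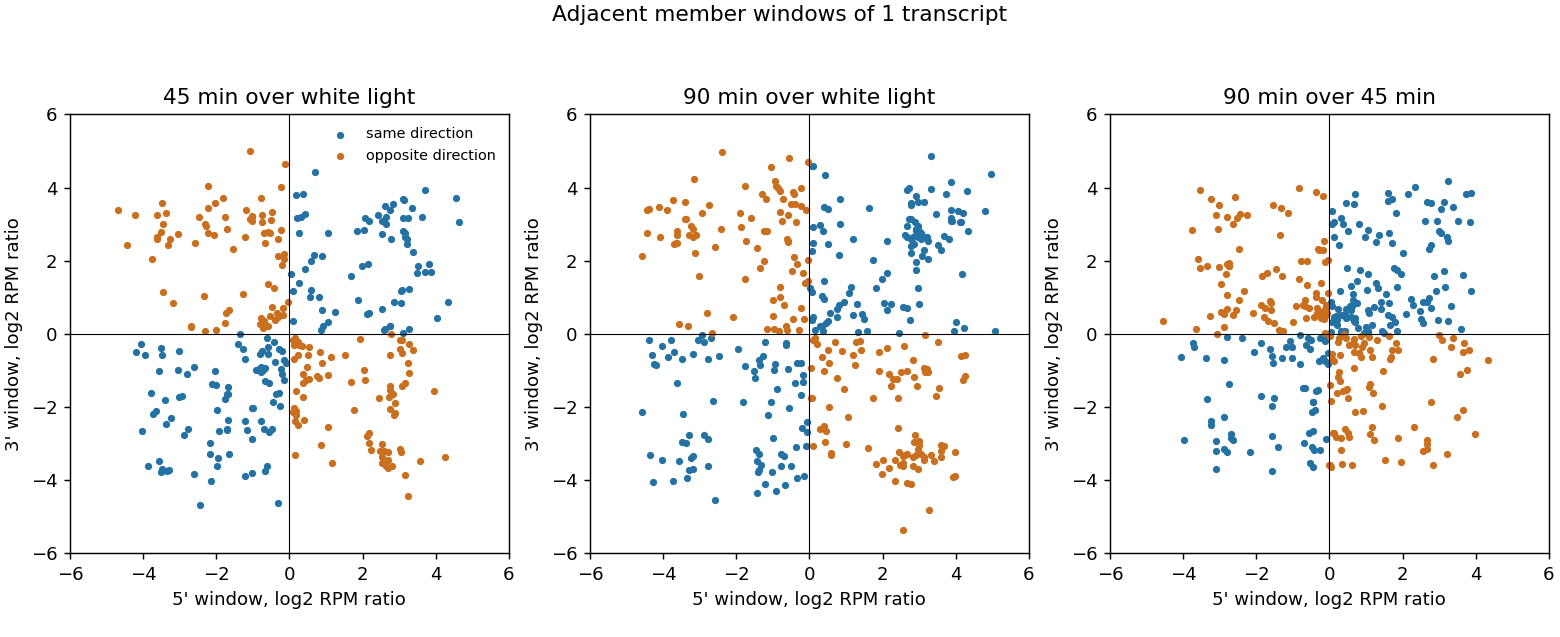
Each point is an adjacent pair of member windows of 1 transcript, with the log2 RPM ratio of the 5′ window on the x axis and that of the 3′ window on the y axis, for the 3 pairs of libraries. Points fill all 4 quadrants, with 51.1%, 51.7% and 51.7% in the quadrants where both windows go the same way.

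Directions were mixed in 65 of 82 transcripts with 3 measured member windows at 45 min (79.3%), in 71 of 108 at 90 min (65.7%) and in 75 of 105 between the far-red libraries (71.4%). Transcripts without a member window that had 3 measured second windows gave 71.2% of 59, 73.5% of 83 and 80.3% of 76. With 2 measured member windows the directions were mixed in 47.7% of 151, 54.8% of 157 and 49.7% of 153 transcripts, against 49.0% of 1371, 50.3% of 1592 and 46.8% of 1449 transcripts without a member window. At 90 min, 22 such transcripts had all 3 windows higher and 15 all lower. The library of highest level was white light for 382 windows, 45 min for 302 and 90 min for 397. It was the same for both windows in 199 of 567 adjacent pairs (35.1%, 95% Wilson interval 31.3 to 39.1). Of the 173 transcripts with 3 member windows, 23 had 1 library highest throughout and 39 had a different library for each window. POK2, with 4 member windows, had each library highest for at least 1 of them. It had 22 reads in its 5′ window at 90 min alone and 31 in the next at 45 min beside 1 in white light. The window after that had 39 in white light alone, and the last had 22 at 45 min alone.

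The split of reads between 2 adjacent member windows was tested directly, by Fisher's exact test adjusted over all adjacent second windows with at least 20 reads in both libraries. It changed in 224 of 290 pairs at 45 min (77.2%, against 75.3% of all adjacent pairs), in 257 of 309 at 90 min (83.2%, against 81.4%) and in 232 of 335 between the far-red libraries (69.3%, against 67.4%). The member pairs were again near the background. The median absolute change was 37.5, 48.1 and 28.5 points, and the split turned over completely in 19, 35 and 16 pairs (6.55%, 11.3% and 4.78%, against 5.23%, 11.1% and 3.47% of all adjacent pairs).

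Of the 35 complete turnovers at 90 min, the 5 with the most reads are named here. CDKD1;3, a kinase that activates cyclin-dependent kinases, had 0, 12 and 36 reads in its window with 798 bases left and 93, 0 and 0 in the window 185 bases further 3′. The numbers are for white light, 45 min and 90 min, and 2 other annotated genes overlap this gene. In HST, an exportin of microRNA biology, the 5′ window had 69, 18 and 0 reads and the 3′ window, 990 bases away, 0, 48 and 40. AT3G44820, of the NPH3 family named for a phototropism protein, had 0, 0 and 61 reads against 47, 25 and 0 at a distance of 600 bases.

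In emb1427, a Spc97 and Spc98 family protein of microtubule nucleation, the windows had 0, 12 and 59 against 48, 0 and 0 reads at a distance of 329 bases. AT5G62570, a calmodulin-binding protein, had 71, 0 and 0 against 0, 11 and 24 at 506 bases. Adjusted p-values of these 5 pairs lay between 2.6e-31 and 5.0e-22 (Fisher's exact test). In CDKD1;3, emb1427 and AT5G62570 the 45 min library fell on the side of the 90 min library, in AT3G44820 on that of white light, and in HST between them. Close windows could turn over too, as in IQD1, where windows 17 bases apart had 0, 4 and 29 against 29, 15 and 1 reads. AT5G62570 and IQD1 each overlap 1 other annotated gene.

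Groups of genes by function were formed by keywords in the deposited annotation and domain names, which sort a few genes wrongly. No test was made of their shares. Transporters, channels and pumps were 6.81% of member genes (35 genes) against 4.43% of the table, and DNA-binding transcription factors 6.42% (33 genes) against 4.40%. Ubiquitin, F-box, RING and proteasome proteins were 6.03% (31 genes) against 4.80%, and protein kinases 5.64% (29 genes) against 4.37%. Ribosomal proteins, translation factors and tRNA ligases were rarer, at 0.973% (5 genes) against 2.57%, as were chloroplast and photosystem proteins at 1.17% (6 genes) against 1.83%. Proteases and chaperones were rarer too, at 2.92% (15 genes) against 4.02%. Kinesin, myosin, actin and tubulin proteins were 2.14% (11 genes) against 1.17%, and had a median coding length of 2988 bases and a median spacing of 643 bases.

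Of the 66 transporter windows tested at 45 min, 24 rose and 17 fell (62.1%, against the background of 65.9%), and of 64 tested at 90 min 21 rose and 18 fell (60.9%, against 70.3%). AUX1 and AAP2, described above, belong to them. Kinase windows changed in 78.0% of 41 tests at 45 min, 14 up and 18 down, and in 89.7% of 39 at 90 min, 17 up and 18 down. Rises and falls were thus near equal in number, with a median difference of -0.88 points at 90 min. Transcription factor windows changed in 66.2% of 65 and 72.6% of 62 tests, with 25 up and 20 down at 90 min.

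Windows of proteases and chaperones had 17 up and 6 down of 31 tested at 90 min (74.2% changed, against the background of 70.3%). Of all second windows 38.8% rose, and the group had a median difference of 13.8 points. This group holds ROC4 and CPN60B, and also SNG1 by its carboxypeptidase-like sequence. At 45 min 11 rose and 6 fell of 33, with a median of 0. Between the far-red libraries 10 rose and 6 fell of 31, with a median of 1.08 points. The 33 windows of this group lie in 15 genes, so they are not independent. The imbalance was not tested, and it was singled out from all the groups and comparisons looked at. Cell wall and glycosyl proteins had 21 up and 18 down of 49 at 90 min (79.6% changed). Repeat proteins, such as PPR2, had 13 up and 10 down of 27 (85.2%), and kinesin, myosin, actin and tubulin proteins 9 up and 6 down of 23 (65.2%). The background at 90 min was 70.3% changed, 38.8% up and 31.4% down.

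Adjacent windows of 1 gene went the same way in 16 of 26 transporter pairs, 11 of 27 transcription factor pairs, 6 of 14 kinase pairs and 8 of 16 protease or chaperone pairs at 90 min. Ubiquitin-related proteins had 9 of 18, cell wall and glycosyl proteins 9 of 19 and repeat proteins 6 of 12. With counts this small these shares cannot be ranked.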

How the data were processed

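The deposited table holds raw read counts, per the file headers, for each transcript and for its first and second windows in each library, with the coding length and the coding bases left. Per the submitters' processing notes, HISAT2 2.0.5, SAMtools 0.1.19 and bedtools 2.17.0 were used. TAIR9 and TAIR10 are both named there, so no coordinates or sequences are given. The width and choice of windows and any removal of duplicates are not given in the sources used here. Every transcript has at least 100 reads and each member window at least 10% of them, so the table is a selection and its totals (3440656, 4373900 and 4125024 reads, genes sharing reads counted repeatedly) are not the depth of the libraries.

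The members, lists and tests were chosen with earlier results of these data known. Samples were grouped by the treatment label, and 0 columns of samples were left unmapped. Named genes were the 10 transcripts with most reads, the 5 longest, the 5 shortest, 5 with most windows, per comparison with white light the 3 largest rises and 3 largest falls among changed windows, the 5 largest splits at 90 min (ties broken by reads), and pairs with extreme spacing. Function groups were refined after seeing the annotation. Gene names came from the RefSeq annotation of TAIR10.1, which holds 513 of the 514 loci. Tests used scipy 1.17.1 and statsmodels 0.14.6 in Python 3.11.15. Tested on simulated counts for white light and 90 min, the share test recovered 200 of 200 windows moved by 25 points and called 5 of 8859 unmoved ones. The moved windows were in transcripts with 1 entry and at least 200 window reads in both libraries, so none was a member. Simulated reads were drawn independently, so duplicate reads were not covered. With 1 library per group no count model was fitted. Alternatives varied the read minimum, pseudocount, scaling, denominator, isoforms and genes with shared reads.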

Additional observations from a re-analysis of the deposited data

Results flagged for a closer look

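Reads of the member transcripts that lie in none of their windows are a signal outside the windows compared above. Of the reads of these 514 transcripts, they were 17.2% for white light, 25.4% for 45 min and 21.0% for 90 min. Both far-red libraries were flagged because they lie above the white light library. The 95% Wilson intervals were 16.9 to 17.4, 25.2 to 25.7 and 20.8 to 21.3, for counting error only. With 1 library per group the difference has no replicate check, and its source was not tested.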

How the results depend on the processing

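No paired analysis was possible because the 3 groups hold 1 library each, which also means that no replicate could be left out. All 30 alternatives for the share of adjacent windows with the same direction stayed within the main interval, from 48.3% to 56.2%, and the pseudocount cannot change a sign. Of 30 alternatives for the count of changed windows, 23 stayed within 1.5 times. Leaving out transcripts with a window count equal to that of another gene (323 genes, many by coincidence at low counts) left 262, 261 and 216 changed windows at 45 min, at 90 min and between the far-red libraries, of 408 tested each. Transcripts of at least 1000 reads, chosen after seeing the data, gave 73, 67 and 56 of 145, and a minimum of 50 window reads gave 436 of 613 at 90 min. The changed splits came to 88, 97 and 94 with a minimum of 50 reads, to 133, 140 and 126 without transcripts with equal counts, and to 47, 53 and 44 in transcripts of at least 1000 reads. Fewer windows or pairs were tested in each of these. The median log2 level ratio at 90 min reversed to -0.041 with at least 50 reads (441 windows), and the cause was not tested, and was 0.05 with no filter and 0.11 with median-ratio scaling. Without a filter it was 0 at 45 min and between the far-red libraries, and with median-ratio scaling it was 0.16 for the latter. Spacing over every adjacent pair of second windows of these transcripts had a median of 325 bases. The share of window reads in member windows was 45.9%, 46.3% and 48.7% without the 10 deepest transcripts and 45.9%, 43.8% and 47.9% as a median over transcripts. With 20% to under 80% of the coding sequence left, 816 windows were members. A median of 16 to 23 reads per window and library limits what a single window shows.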
